A study of Homo sapiens with 6 samples.

Results

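The genes described here are 9 transcription factors that pattern the early neural plate and brain: OTX1, OTX2, SIX6, EMX2, LHX2, PAX6, EN1, NKX6-1 and NEUROG2. They were followed through lists of β-catenin binding sites (peaks) from chromatin immunoprecipitation sequencing (ChIP-seq) in the human embryonic stem cell line SA121. A peak belonged to a gene when the authors had assigned it to that gene, at any distance from the transcription start site (TSS). Of 3126 peaks in the 3 lists, 13 were assigned to the 9 genes, 7 in CHIR+SB, 5 in CHIR and 1 in RPMI. PAX6 had none in any list.

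The cells were kept for 6 h in RPMI medium with CHIR99021 and SB431542 (CHIR+SB), with CHIR99021 alone (CHIR), or without inhibitor (RPMI, labelled mock). CHIR99021 inhibits the kinase GSK3 and so stabilises β-catenin, and SB431542 blocks the activin, Nodal and TGFβ type I receptors. Doses are not given here because the labels' unit for them is in doubt. Each condition had 1 library with the β-catenin antibody and 1 with goat IgG, each made from the pooled DNA of parallel ChIPs, which leaves replicate error unknown and allows no test between conditions. All cells were of 1 line, and peak lists hold no expression values against which the stem cell label could be checked. In a bulk ChIP, a site bound in fewer cells and a site bound less in each cell cannot be told apart.

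β-catenin does not bind DNA itself. It is brought to its target genes by the TCF/LEF factors when Wnt signalling is on. In vertebrate embryos high Wnt activity favours the posterior neural plate, while the forebrain forms where Wnt is kept low, so many of the genes described here mark territories that Wnt signalling places or limits. OTX2 is also known from pluripotent cells and from the early anterior endoderm.

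For 3 of the genes, SIX6, NKX6-1 and OTX2, a peak reached into the 250 bases before the TSS, and the RefSeq sequence of that stretch is shown because the data bear on it. By the positions in the lists, the SIX6 peak covered the last 95 bases of that stretch, next to the TSS, and the OTX2 peak of CHIR covered all of it. The OTX2 peak of CHIR+SB lay 112 to 245 bp before the TSS and did not reach the bases next to it. The NKX6-1 peak, 214 to 759 bp before the TSS, entered only the far end of the stretch. The sequences come from GRCh38.p14 and the peak positions from hg19. The annotated gene spans also differ: SIX6 covers 2588 bp from TSS to gene end in the peak list and 3705 bp in RefSeq. The peaks were therefore not placed on these letters. Capitals mark a TCF/LEF word (CTTTG followed by AA, AT, TA or TT) or the octamer ATGCAAAT, the word that OCT4 and related POU factors read, each searched on both strands. The windows, all 5′ to 3′ on the gene's strand, were chr14:60508896-60509145 (+) for SIX6, chr4:84499293-84499542 (−) for NKX6-1, and chr14:56805668-56805917 (−) and chr14:56810480-56810729 (−) for the 2 OTX2 starts in the table. Which of these OTX2 starts the peak list uses was not determined. Both OTX2 peaks were placed by the same TSS in the lists, so they bear on 1 of these 2 windows at most.
SIX6: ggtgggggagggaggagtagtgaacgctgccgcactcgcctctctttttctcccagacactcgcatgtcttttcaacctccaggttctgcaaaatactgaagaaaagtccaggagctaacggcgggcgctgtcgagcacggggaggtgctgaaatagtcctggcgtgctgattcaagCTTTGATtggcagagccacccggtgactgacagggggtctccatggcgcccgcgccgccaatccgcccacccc
NKX6-1: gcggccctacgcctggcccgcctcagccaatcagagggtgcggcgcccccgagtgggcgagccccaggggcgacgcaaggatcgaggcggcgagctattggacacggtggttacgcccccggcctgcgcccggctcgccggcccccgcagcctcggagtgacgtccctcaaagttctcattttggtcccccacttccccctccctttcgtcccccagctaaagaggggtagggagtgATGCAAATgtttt
OTX2, chr14:56805668-56805917: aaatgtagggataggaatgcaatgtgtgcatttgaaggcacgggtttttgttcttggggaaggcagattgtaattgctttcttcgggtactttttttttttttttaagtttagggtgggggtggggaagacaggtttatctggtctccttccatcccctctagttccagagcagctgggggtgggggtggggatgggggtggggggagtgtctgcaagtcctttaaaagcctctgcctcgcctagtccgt
OTX2, chr14:56810480-56810729: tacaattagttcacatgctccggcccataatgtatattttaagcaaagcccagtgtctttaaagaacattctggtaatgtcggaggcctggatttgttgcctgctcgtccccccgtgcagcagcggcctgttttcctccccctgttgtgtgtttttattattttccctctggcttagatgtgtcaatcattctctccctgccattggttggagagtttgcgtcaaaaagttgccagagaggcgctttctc

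SIX6 held 1 TCF/LEF word, CTTTGAT, which began 73 bases before the start, and no octamer. NKX6-1 held 1 octamer, which began 13 bases before the start, and no TCF/LEF word. By the distances in the peak list, which are from another build, the NKX6-1 peak ended 214 bp before the TSS and so did not reach as near to the start as that octamer. Neither OTX2 window held either. Over all 35116 windows of this length in the table, 12.0% held at least 1 of the 4 TCF/LEF words, 2.26% held CTTTGAT and 1.63% held the octamer. Of the 9 genes 8 had a window in the table, and besides SIX6 only PAX6 held a TCF/LEF word, in 1 of its 9 windows. No match in the marked sequences overlapped another, and the presence or absence of a word in these windows says nothing of what is bound there.

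In CHIR+SB, 6 of the 9 genes had a peak, in CHIR 5 and in RPMI 1. Among all 20052 protein-coding genes of the RefSeq table, 6.25% had a peak assigned in CHIR+SB, 3.8% in CHIR and 1.13% in RPMI. The 9 genes were gathered with earlier results of these lists known, so the counts are a description. Developmental genes often stand in long intergenic stretches, and peaks were assigned to a gene at any distance. Within 10 kb of the TSS, 5 of the 9 genes had a peak in CHIR+SB, 5 in CHIR and 0 in RPMI. The share of all protein-coding genes within that distance was not taken. OTX1, OTX2 and NKX6-1 had a peak both in CHIR+SB and in CHIR. EN1, NEUROG2 and SIX6 had a CHIR+SB peak without a CHIR peak, and EMX2 and LHX2 a CHIR peak without a CHIR+SB peak. OTX1 was the 1 gene with a peak in all 3 lists, though its RPMI peak lay elsewhere. A limit was then set at a normalized signal of 9.61, the highest of the lists' lowest values. Peaks at or above it were left at 3 genes in CHIR+SB (EN1, NKX6-1 and OTX1) and at 3 in CHIR (EMX2, NKX6-1 and OTX2). The EN1 and NKX6-1 peaks left in CHIR+SB lay 204 and 119 kb from the TSS. OTX1 was left in RPMI, where the limit is the list's own lowest value.

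**Figure D1:**
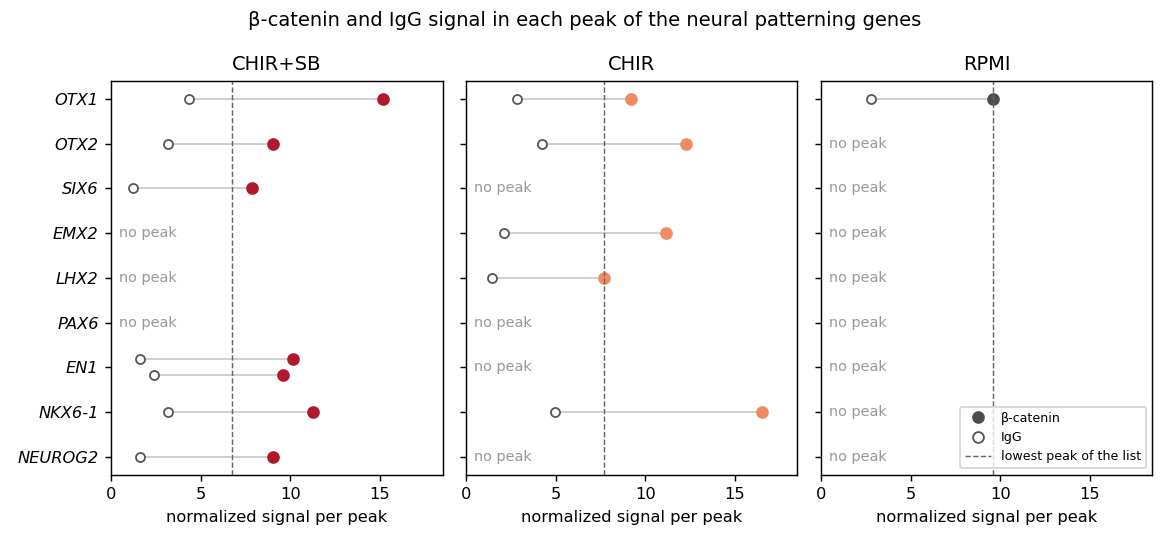
Normalized β-catenin signal (filled points) and IgG signal (open points) of each peak assigned to the 9 genes, in the CHIR+SB, CHIR and RPMI lists, with a dashed line at the lowest β-catenin signal of any peak in the list. The filled points lie between 7.68 and 16.5. LHX2 in CHIR and OTX1 in RPMI lie on the dashed line, OTX1 in CHIR+SB and NKX6-1 in CHIR lie at 2.25 and 2.15 times it, and PAX6 has no point.

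The libraries differed in depth. By the authors' scaling factors the β-catenin library was 1.14 times as deep as RPMI in CHIR+SB and 1.67 times in CHIR, and the IgG library 1.75 and 0.976 times. The lowest peak of a list had 12 reads in CHIR+SB, 20 in CHIR and 15 in RPMI, which is a normalized signal (reads times 1 factor per library) of 6.75, 7.68 and 9.61. A gene without a peak is thus one where no site was called at these depths, and not one shown to be unbound.

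OTX2, a homeobox factor of forebrain and midbrain, had a peak at its TSS with both inhibitor treatments. In CHIR+SB it had 16 reads and 8 IgG reads at chr14:57272493-57272626 (hg19), 112 to 245 bp before the TSS, a normalized signal of 9.001. In CHIR it had 32 reads and 6 IgG reads at chr14:57272261-57272652, from 271 bp before the TSS to 120 bp after it, a signal of 12.3. The narrower CHIR+SB peak lay wholly inside the CHIR peak. Signal in CHIR+SB was 0.732 times that in CHIR, with an exact 95% interval of 0.375 to 1.37 from the read counts, so the values did not differ beyond counting error. Intervals here cover counting error alone, since each condition had 1 library. They may be too narrow even for that, since reads from PCR are not independent molecules. RPMI had no OTX2 peak.

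OTX1, the paralogue of OTX2, had a peak just upstream of its TSS with both treatments. In CHIR+SB it had 27 reads and 11 IgG reads at chr2:63276183-63276667, a signal of 15.2. In CHIR it had 24 reads and 4 IgG reads at chr2:63276396-63276526, a signal of 9.22. The centres lay 766 and 730 bp before the TSS of NM_001199770, and the CHIR peak lay wholly inside the CHIR+SB peak. Signal in CHIR+SB was 1.65 times that in CHIR (exact 95% interval 0.915 to 2.98), again not beyond counting error. Among 642 peaks that overlapped one-to-one between these lists, 11.7% were more than 1.5-fold higher in CHIR+SB and 8.88% more than 1.5-fold lower, and the median ratio was 1.00.

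At OTX1 and OTX2 the signal per peak was higher in the treatment with the wider peak. Reads were not counted over a common stretch, and how width and signal depend on each other was not tested. At OTX1 the width was 484 bp in CHIR+SB and 130 bp in CHIR, a ratio of 3.72, and at OTX2 it was 133 bp in CHIR+SB and 391 bp in CHIR, a ratio of 0.340. Per kb of peak, signal was 31.4 in CHIR+SB and 70.9 in CHIR at OTX1, and 67.7 in CHIR+SB and 31.4 in CHIR at OTX2. The ratio per kb was 0.443 at OTX1 and 2.15 at OTX2, so it turned at both genes. It turned in this way at 57.5% of the 642 peaks. A width ratio as large as that at OTX1 or larger occurred at 8 of them (1.25%). Signal over IgG was nearly the same in both treatments, 3.51 in CHIR+SB and 3.27 in CHIR at OTX1, and 2.86 in CHIR+SB and 2.90 in CHIR at OTX2.

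**Figure D2:**
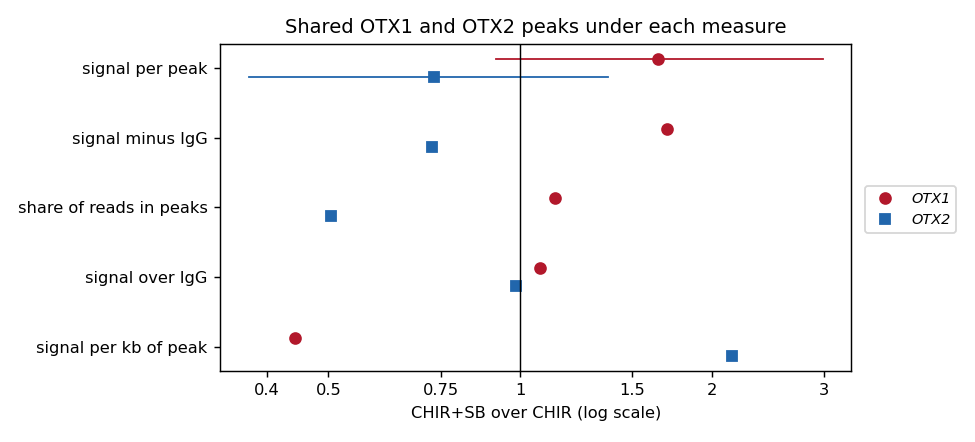
Ratio of CHIR+SB to CHIR (log axis) at the OTX1 and OTX2 peaks present in both lists, under 5 measures, with exact 95% intervals as lines for signal per peak. OTX1 lies at 1.65 per peak and 0.443 per kb, OTX2 at 0.732 and 2.15, and both lie near 1 for signal over IgG (1.07 and 0.985).

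The single RPMI peak of the group was also assigned to OTX1. It had 15 reads and 4 IgG reads at chr2:63291249-63291355, a signal of 9.61, and lay 6.34 kb beyond the gene end and 13.4 kb from the TSS of NM_014562, a second start of the gene. It overlapped no peak of CHIR+SB or CHIR. It was one of 55 RPMI peaks with 15 reads, the lowest number in that list. Among all RPMI peaks 61.5% overlapped a CHIR+SB peak and 69.6% a CHIR peak, and among those at or below the median read count 37.0% and 47.8% did.

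SIX6, a homeobox factor of eye and hypothalamus, had a peak in CHIR+SB only. It had 14 reads and 3 IgG reads at chr14:60975842-60975953, from 95 bp before the TSS to 16 bp after it, a signal of 7.88. In that list 433 peaks had 14 reads and 6 had fewer, so SIX6 stood next to the lower limit of the list. Its signal was 6.67 times the IgG signal (exact 95% interval 1.86 to 36.2).

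EMX2 and LHX2, homeobox factors of the developing cerebral cortex, had peaks in CHIR only. The EMX2 peak had 29 reads and 3 IgG reads at chr10:119307136-119307447, within the gene and 5.34 kb after the TSS, a signal of 11.1. The LHX2 peak had 20 reads and 2 IgG reads at chr9:126767703-126767857, 6.11 kb upstream, a signal of 7.68. LHX2 was thus one of 80 CHIR peaks at the lowest read count of the list, whereas EMX2 lay above 436 of the 1053. Signal over IgG was 5.26 (1.63 to 27.0) at EMX2 and 5.44 (1.32 to 48.0) at LHX2. The lists hold no value for these sites in CHIR+SB, where a peak could have as little signal as 6.75.

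PAX6, a paired-box and homeobox factor needed for the eye and a marker of human neurectoderm, had no peak in CHIR+SB, CHIR or RPMI. Of the 5 protein-coding genes on either side of PAX6 in RefSeq order, 9 had no peak either. The exception was MPPED2, the outermost on one side, with 3 peaks in CHIR+SB, 1 in CHIR and 0 in RPMI. Only names of protein-coding genes were matched here, so peaks near PAX6 assigned to noncoding genes were not looked for.

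EN1, a homeobox factor of the midbrain-hindbrain boundary, had 2 peaks in CHIR+SB and none in the other lists. The nearer had 17 reads and 6 IgG reads at chr2:119612787-119612971, 7.12 kb upstream of the TSS, a signal of 9.56. The farther had 18 reads and 4 IgG reads at chr2:119401878-119402252, 204 kb from the TSS beyond the gene end, a signal of 10.1. Both had about the median read count of that list, which was 17.

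NKX6-1, a homeobox factor of the ventral neural tube and of the pancreas, had the highest peak of the group. In CHIR+SB its peak had 20 reads and 8 IgG reads at chr4:85300209-85300523, 119 kb from the TSS beyond the gene end, a signal of 11.3. In CHIR it had 43 reads and 7 IgG reads at chr4:85419601-85420146, 214 to 759 bp before the TSS, a signal of 16.5. The peak was thus at a distant site in CHIR+SB and at the promoter in CHIR, and no ratio was taken. The promoter site held a read count above 772 of the 1053 peaks of the CHIR list. Of the CHIR peaks above the median read count, 84.1% overlapped a CHIR+SB peak, and the NKX6-1 promoter peak did not.

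NEUROG2, a basic helix-loop-helix factor that starts neuronal differentiation and the 1 gene here without a homeobox, had a peak in CHIR+SB only. It had 16 reads and 4 IgG reads at chr4:113431559-113431718, 3.03 kb beyond the gene end, a signal of 9.001. Its signal was 5.71 times the IgG signal (1.84 to 23.5).

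**Figure D3:**
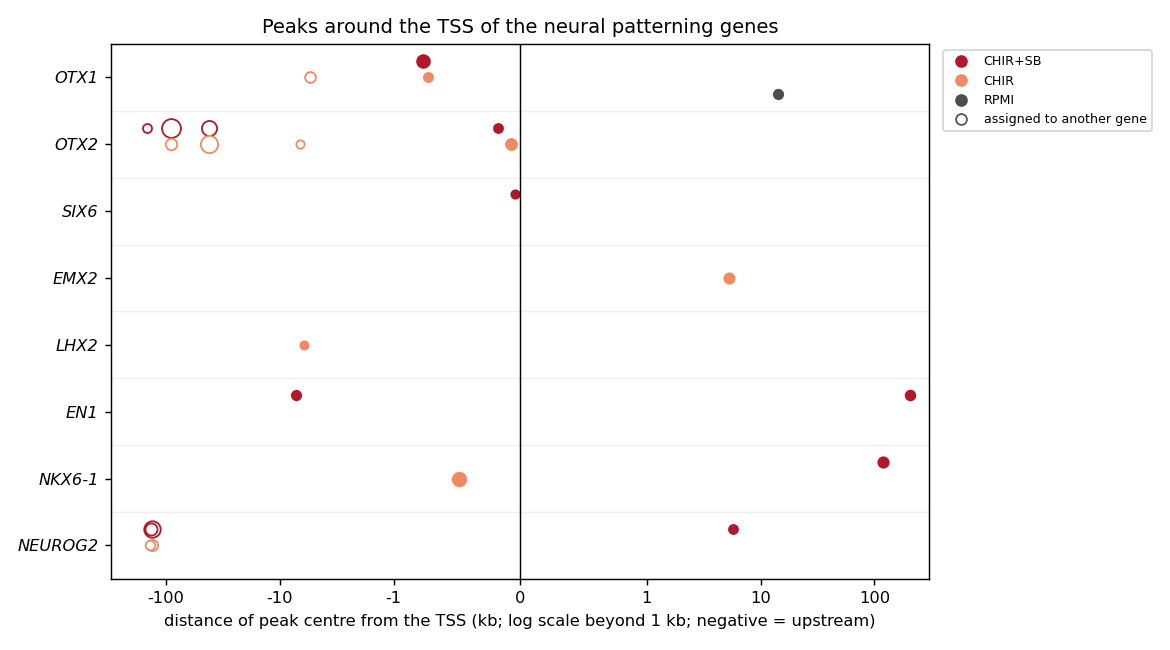
Distance of peak centres from the TSS (kb, log axis beyond 1 kb, negative upstream) for the 8 genes with a peak, with points sized by signal, filled where the peak was assigned to that gene and open where another gene within 200 kb had it (open points are shown for OTX1, OTX2 and NEUROG2). For OTX1 the TSS is that of NM_001199770. OTX1 and OTX2 have peaks of both treatments near 0, and OTX2 has further open points of both treatments upstream.

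Recurrence between lists was counted by overlap. Of the 7 peaks in CHIR+SB, 2 overlapped a CHIR peak, those of OTX1 and OTX2, where 36.6% of all CHIR+SB peaks did. Of the 5 peaks in CHIR, the same 2 overlapped a CHIR+SB peak, where 63.3% of all CHIR peaks did. No peak of the 9 genes in CHIR+SB or CHIR overlapped an RPMI peak, where 8.77% of all CHIR+SB peaks and 17% of all CHIR peaks did. Recurrence in these lists went with read count: among CHIR+SB peaks at or below the median, 11.7% overlapped a CHIR peak, and above it 63.3%. With so few peaks these counts do not set the 9 genes apart from their lists. Of the 7 CHIR+SB peaks described here 4 were at or below the median of their list, and of the 5 CHIR peaks 3 were.

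At promoters, meaning within 1 kb of the TSS, lay 3 of the 7 CHIR+SB peaks (OTX1, OTX2 and SIX6) and 3 of the 5 CHIR peaks (OTX1, OTX2 and NKX6-1). Over the whole lists 14.5% of CHIR+SB peaks, 26.6% of CHIR peaks and 55% of RPMI peaks did. The single RPMI peak, near OTX1, was not at a promoter.

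The 13 peaks were not among the strongest of their lists. The highest in CHIR+SB, OTX1, ranked 326 of 1813, and the highest in CHIR, NKX6-1, ranked 271 of 1053. Read counts ran from 14 to 27 in CHIR+SB and from 20 to 43 in CHIR, where the strongest peak of the list had 124 reads in CHIR+SB and 234 in CHIR. Signal over IgG ran from 2.86 to 6.67 in CHIR+SB and from 2.90 to 5.44 in CHIR and was 3.49 in RPMI, against medians of 4.29, 4.66 and 4.28 over all peaks. At each of the 13 peaks the lower bound of the interval of signal over IgG was above 1. The authors' lists score peaks against IgG, so this is a description.

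**Figure D4:**
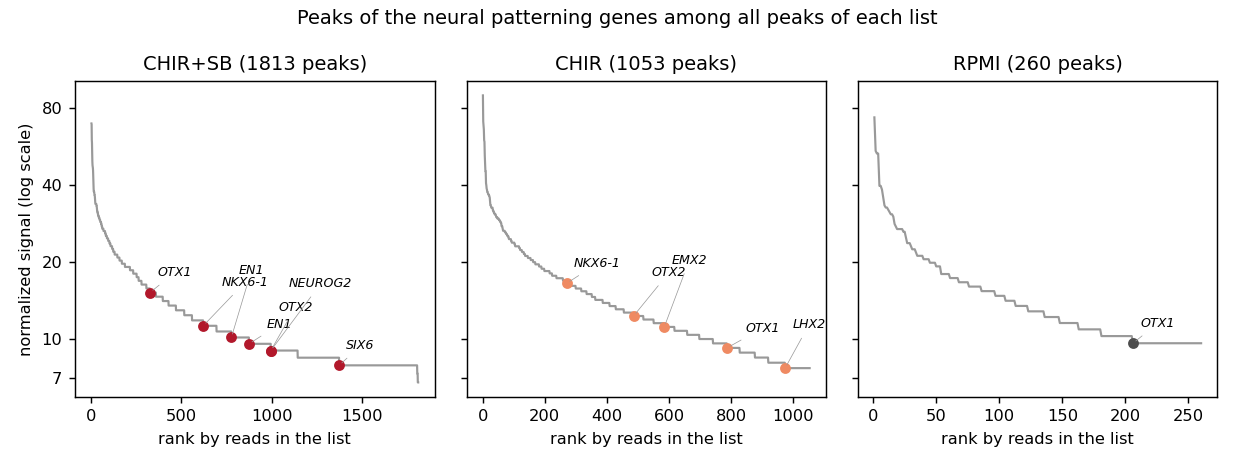
Normalized β-catenin signal (log axis) of all peaks of each list against their rank by reads (grey line), with the peaks of the 9 genes as points. The points lie from rank 326 downward in CHIR+SB and from rank 271 downward in CHIR, and the RPMI point lies on the flat end of the line.

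Assignment to the nearest gene left peaks with more signal per peak near OTX2 out of its count. Within 200 kb of its TSS there were 4 peaks in CHIR+SB, 4 in CHIR and 0 in RPMI, and 3 of each 4 were assigned to OTX2-AS1, a noncoding gene on the other strand beside OTX2. A site 41.6 kb upstream of OTX2 had 34 reads in CHIR+SB and 59 in CHIR, a signal of 19.1 and 22.7 (ratio 0.844, exact 95% interval 0.537 to 1.31). A site about 89 kb upstream had 45 reads in CHIR+SB and 34 in CHIR, a signal of 25.3 and 13.1 (ratio 1.94, 1.21 to 3.12). The second ratio exceeded counting error as the read counts give it, which may be too small an error. The boundaries of that peak in CHIR+SB were 1.58 times as far apart, and per kb the ratio was 1.22. Both sites had more signal per peak than the peak at the OTX2 TSS in each treatment, and their peaks were wider. Per kb of peak, signal in CHIR+SB was 38.1 and 35.5 at these sites and 67.7 at the OTX2 TSS. In CHIR it was 34.0 and 28.9 at these sites and 31.4 at the OTX2 TSS. IgG reads at these sites were 14 and 15 in CHIR+SB, and 5 at each in CHIR. Of the remaining pair, a CHIR peak of 20 reads lay 6.67 kb upstream of OTX2 and a CHIR+SB peak of 16 reads 146 kb upstream.

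At the other genes fewer neighbouring peaks were found within 200 kb. MIR302B, of the miR-302 cluster that is active in human embryonic stem cells, had 2 peaks in each treatment about 133 and 136 kb from the NEUROG2 TSS. They had 38 and 25 reads in CHIR+SB and 33 and 26 in CHIR, more than the 16 reads of the NEUROG2 peak itself. OTX1 had a CHIR peak of 31 reads 5.46 kb upstream, assigned to the noncoding gene LOC100132215, which overlapped no CHIR+SB peak. EMX2, LHX2, EN1 and NKX6-1 had no peak of another gene within 200 kb in any list.

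Across the 3 lists, 1840 genes had a peak, and likeness was measured by the distance between the log2(highest signal + 1) values, with 0 for no peak. The nearest to NKX6-1 were MAP2, PDE4D and CBR1, to OTX2 PAQR8, CRTC3 and LINC00309, and to OTX1 GPBP1, PHLDA1 and TERF2IP. MAP2 had the same signals as NKX6-1 (11.3 in CHIR+SB and 16.5 in CHIR), and PAQR8 the same as OTX2 (9.001 and 12.3). With few reads per peak such ties are common, and 3 lists are few points for a likeness.

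A list of 42 other genes of neural patterning was set beside these. In CHIR+SB 14 of the 42 had a peak (33.3%), in CHIR 8 (19.0%) and in RPMI 1 (2.38%). The shares of all protein-coding genes are given above. These 42 genes too were chosen with earlier results of these lists known, so the counts are a description. Within 10 kb of the TSS, 7 of them had a peak in CHIR+SB, 3 in CHIR and 0 in RPMI. The share of all genes at that distance was not taken. DBX1, GBX2, LHX5, PAX2, PAX3, PAX7 and SOX1 had a peak in both CHIR+SB and CHIR. Of those with a peak under a single treatment, MEIS2, NEUROD1, NKX2-2, PAX5 and SOX2 were among the genes that had it in CHIR+SB, and IRX3 had it in CHIR. The 1 RPMI peak, of POU3F2, had 19 reads and lay 55.3 kb upstream.

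The highest normalized signals among these peaks belonged to PAX7, 33.2 in CHIR+SB, and to GBX2, 31.1 in CHIR. GBX2 is a homeobox factor of the anterior hindbrain that opposes OTX2 at the midbrain-hindbrain boundary. It had 48 reads in CHIR+SB and 81 in CHIR at a site 8.44 kb from the TSS beyond the gene end, with 23 IgG reads in CHIR+SB and 11 in CHIR. At a second site upstream it had 34 reads in CHIR+SB and 49 in CHIR. PAX7, of the dorsal neural tube and neural crest, had 59 reads in CHIR+SB and 44 in CHIR at its highest peak. These counts exceed those of every peak of the 9 genes, the highest of which had 27 reads in CHIR+SB and 43 in CHIR.

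The highest peak of the other shared genes had 14 (DBX1), 18 (LHX5), 18 (PAX2), 21 (PAX3) and 19 (SOX1) reads in CHIR+SB. In CHIR these genes had 25 (DBX1), 29 (LHX5), 28 (PAX2), 30 (PAX3) and 30 (SOX1) reads. For LHX5, PAX2 and PAX3 the highest peak lay at different sites in CHIR+SB and CHIR, so these counts do not compare 1 site. Among the genes named for a CHIR+SB peak without one in CHIR, MEIS2 and PAX5 had 14 reads, NEUROD1 and SOX2 17 and NKX2-2 21. Of these, the MEIS2 peak lay 359 kb from the TSS, the PAX5 peak 1.58 kb and the SOX2 peak 8.86 kb. The IRX3 peak had 22 reads in CHIR and lay 306 kb from the TSS. At promoters lay the NKX2-2 and NEUROD1 peaks in CHIR+SB, and none of the CHIR or RPMI peaks of these 42 genes.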

How the data were processed

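ChIP-seq libraries were aligned with Bowtie, per the submitters' processing notes, which name hg19 and mm9. The caller of the peaks, its thresholds and the version of Bowtie were not given in the sources used here. For each β-catenin library the authors deposited 1 list. Each row, per the file headers, gives whole read counts of the β-catenin and IgG libraries within the peak, both counts times 1 factor per library (normalized signal), their ratio, the assigned gene and the distance to its TSS. The deposited files write decimal commas, read here as points. Gene names in the lists matched the RefSeq table for 1447 of 1511 in CHIR+SB, 882 of 928 in CHIR and 250 of 255 in RPMI.

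Peaks overlapped when they shared 1 bp. Ratios used peaks that overlapped one-to-one, with exact conditional binomial 95% intervals (scipy 1.17.1), and 1.5-fold as the limit for a difference. Interval and overlap functions were checked on simulated data. Every peak of the 9 genes is named, as are, with the exceptions below, the other neural genes with a peak, neighbours within 200 kb and the 3 nearest genes by likeness. The genes, lists and settings were chosen with earlier results of these data known. The sequence under the peaks was not analysed here, and some neighbouring and other neural genes are not reported here.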

Additional observations from a re-analysis of the deposited data

How the results depend on the processing

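Of 50 recomputed values, 35 kept within 1.5 times the reported count or within the interval of the reported ratio. Some of the 35 could not have moved. A count of 0 overlaps cannot rise under a stricter overlap or a signal limit. RPMI counts also cannot change at a signal limit or list length taken from RPMI itself. The 35 is therefore no measure of how stable the results are. With the highest of the lists' lowest signals, 9.61, applied to every list, 3 of the 9 genes had a peak in CHIR+SB and 3 in CHIR. In CHIR+SB, EN1 and NKX6-1 were kept by their distant peaks. With that limit 0 of their peaks overlapped between CHIR+SB and CHIR in either direction, because one partner of each shared pair fell below it. Of the other neural genes 7 then had a CHIR+SB peak. With each list limited to as many of its highest peaks as RPMI holds, and ties kept, 0 of the 9 genes had one in CHIR+SB and 0 in CHIR. In CHIR this kept 270 peaks of 44 reads or more, and NKX6-1, with 43 reads, ranked next at 271. Within 10 kb of the TSS, 0 of the 9 genes had an RPMI peak, and 7, 3 and 0 of the other neural genes had a peak in CHIR+SB, CHIR and RPMI. Within 50 kb, 5 of the other neural genes had a CHIR peak and 0 an RPMI peak. Per kb of peak width the ratio of CHIR+SB to CHIR was 0.443 at OTX1 and 2.15 at OTX2, the reverse of the ratio per peak, through the widths given above. Signal over IgG, a measure added after the data were seen, gave 1.07 and 0.985. No paired analysis was possible because each condition had 1 library. Depth limits the 13 peaks of the 9 genes: each had 43 reads or fewer, and SIX6, LHX2 and the RPMI peak of OTX1 stood at or next to the lowest read count of their list.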
